A study of Mus musculus with 24 samples.

Results

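The genes described here are 40 genes of mitosis, the spindle and the kinetochore, taken from the 23503 genes that entered the tests on 24 mouse aorta arrays. They were chosen by name from a list, over control-free array rows, and the brightest probe stood for each gene. The array's own gene names matched 39 of them, and Ska3 was matched through its accession. The study read aortic RNA on one-colour Agilent arrays for 8 groups of 3, made by crossing genotype, drinking water and infusion, and the series states that replicates were biological. The infusion, given for 3 days, held β-aminopropionitrile (BAPN, which blocks the crosslinking of collagen and elastin) and angiotensin II, a hormone that raises blood pressure. Salt was 1% NaCl in the drinking water, begun before the infusion.

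In the text, "salt-infused" aortas came from mice given salt water and the infusion, "infused" aortas from mice on plain water with the infusion, "salt" aortas from mice given salt water and vehicle, and "control" aortas from mice on plain water and vehicle. Each of these 4 groups exists for IL-17 Knockout (KO) mice and for wild-type (WT) mice, both labelled C57BL/6 and kept on normal chow. The agent field of the labels names BAPN, with or without NaCl, and only the protocol names angiotensin II. Age and sex are not given in the sources used here, nor is the allele by which IL-17 was deleted.

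A cell that divides first copies its DNA and then enters mitosis, when Cdk1 with cyclin B drives chromosome condensation and spindle assembly. Kinetochores, built on the centromeres, tie chromosomes to microtubules, and a checkpoint holds the cell in metaphase until each pair is attached. Cytokinesis then splits the cell. In a healthy adult artery most smooth muscle and endothelial cells rest outside the cycle, so that messages of this kind are low, whereas arterial injury is known to bring wall cells and leukocytes into division.

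The label of the tissue was checked on its defining markers: 10 of 10 smooth muscle genes, Myh11 and Acta2 among them, were well above background on all 24 arrays. Probes for Il17a and Il17f, the genes of IL-17A and IL-17F, passed background clearly on 0 of 24 arrays, WT included, so the knockout label was not checked by its target. The share of spots well above background ran from 51.1% to 60.8% over the arrays, and no spot was saturated. Values below are levels on a log2 scale, taken relative to the array's 75th percentile of signal, so that 0 is the level of that percentile. A level of one probe cannot be set against that of another. The arrays lie on 4 slides, and each slide holds 1 genotype, so genotype and slide cannot be told apart. With 3 arrays a group the precision of each value is limited. Each p-value sets a change against 1 spread per gene, estimated over all 8 groups and drawn toward that of other genes. A group whose arrays varied more, such as infused KO, thus gets much the same standard error (SE) as the others.

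Of the 40 genes, 39 passed the filter, which asked that 1 group have the probe well above background on each of its 3 arrays. Aurkb, the catalytic kinase of the chromosomal passenger complex, did not, being well above background on 1 of 24 arrays, in an infused WT aorta. A set of 22 members was well above background on all 24 arrays. On the 12 arrays of infused mice 37 members were measured throughout, against 22 on the 12 arrays of vehicle mice, where 6 members (Aurkb, Bub1, Cenpf, Kif2c, Ska3 and Ttk) were measured on 0. The filter itself bears on the counts that follow. Through a vehicle group 27 members passed it, and 12 only through an infused group, so that these 12 had to differ. They are Bub1, Cdk1, Cenpf, Kif11, Kif15, Kif2c, Kif4, Nek2, Nuf2, Ska1, Ska3 and Ttk. Counts and medians by role include them.

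**Figure D1:**
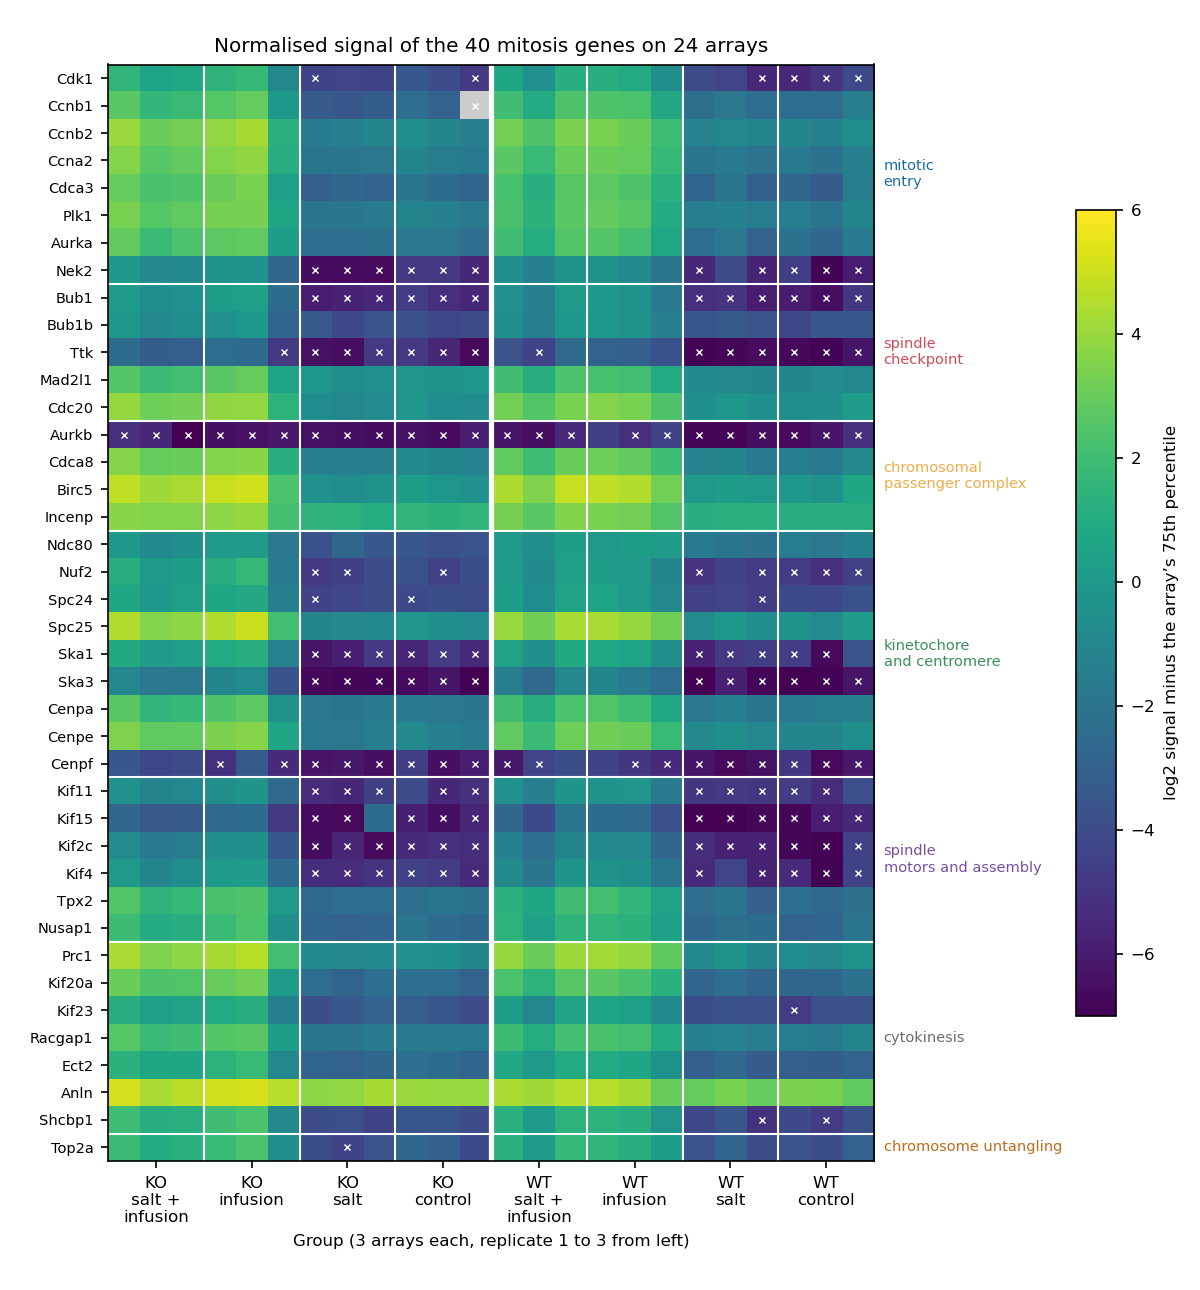
Level of the 40 members (down the page, by role) on each of the 24 arrays (across), as log2 signal relative to the array's 75th percentile, in colour. A cross marks a probe not well above background and grey a missing value; the infused columns are bright and the vehicle columns dark, and the third KO infused array is paler than the other 2 of its group.

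Mitotic genes were higher in infused aortas of both genotypes, with salt or without. With limma and Benjamini-Hochberg adjustment over all 23503 genes at 0.05, 37 of the 39 tested members rose in salt-infused KO aortas against KO salt aortas, where 13.3% of all genes were called higher. In infused KO aortas 38 rose against KO controls (14.3% of all genes). In salt-infused WT aortas 39 rose against WT salt aortas (16.3% of all genes, with 32.9% in either direction), and in infused WT aortas 37 rose against WT controls (12.2% of all genes). No member was called lower in any of the 4. Each comparison has its own vehicle group, though all share 1 estimate of the spread, and 36 members were called higher in all 4.

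The median log2 change over the 39 tested members was 4.62 in KO with salt, 3.92 in KO on plain water, 4.05 in WT with salt and 3.90 in WT on plain water. Over all genes tested the medians were -0.02, -0.05, -0.05 and -0.02 in the same order. Where a probe was not well above background on any vehicle array, only a bound can be given: the infused mean is set against a floor, which on each vehicle array is the dimmest signal still well above background, or the probe's own where that is brighter. Where only 1 of 3 vehicle arrays measured a member, its fold is likewise given with the other arrays at the floor. With the members measured on no vehicle array at their bounds the medians were 4.22, 3.84, 3.92 and 3.76. Any member whose infused mean did not exceed the mean floor has no bound and was left out of these medians. The 27 members that had passed the filter through a vehicle group gave 26, 27, 27 and 26 calls and medians of 4.53, 3.86, 3.75 and 3.81. Groups did not overlap for 38, 38, 39 and 37 members, with every infused array above every vehicle array, against 25.4%, 17.7%, 25.5% and 16.1% of all genes. Of the 22 members well above background on all 12 vehicle arrays, 18 had changes that spread by less than 1 log2 unit over the 4 comparisons, and Ndc80 (1.40), Cenpe (1.31), Plk1 (1.26) and Ccnb2 (1.07) spread more.

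**Figure D2:**
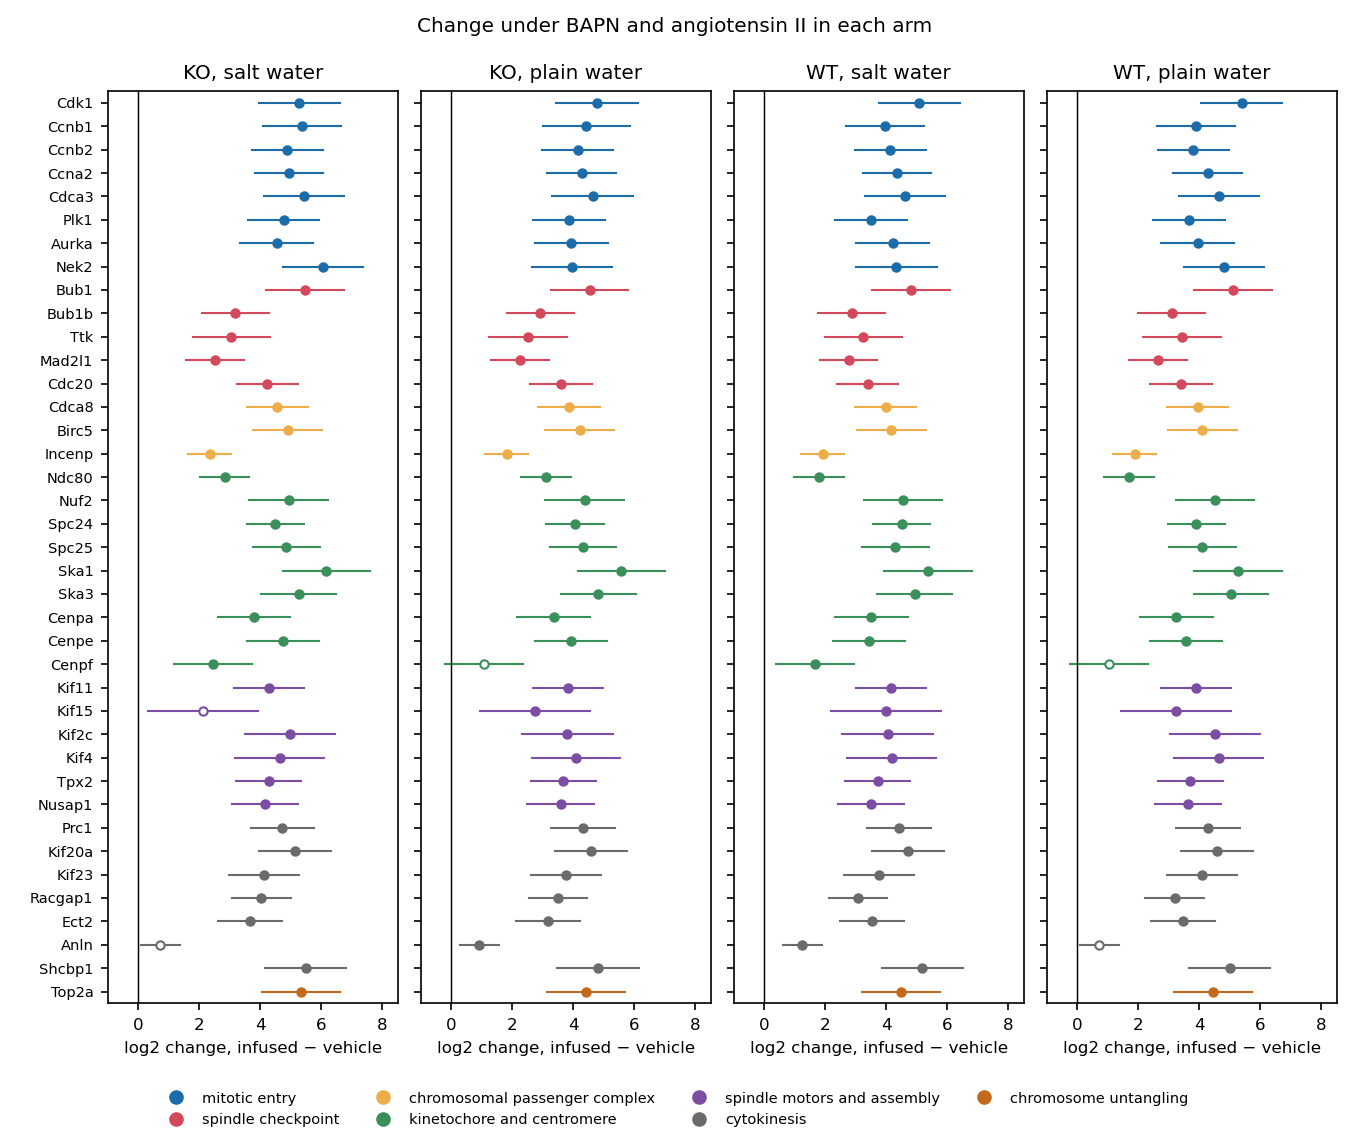
Log2 change with the infusion for 39 members (down the page, by role) in the 4 comparisons of infused with vehicle aortas; points are limma estimates, bars their 95% intervals, and open circles did not pass the threshold. Most members lie above 3, while Anln, Cenpf, Incenp and Ndc80 lie below most others.

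In these whole-wall samples fewer cells of a type and less RNA per cell cannot be told apart, and a higher level may likewise come with more cells. Marker lists of the cells an aorta can hold were therefore read beside the members. Of 14 macrophage genes, 9 to 12 rose in each of the 4 infusion comparisons and 0 fell. Their summed linear level, in units of the array's 75th percentile, ran between 211 and 331 on the 6 infused KO arrays, against 152 to 175 on the 6 vehicle KO arrays, and between 267 and 348 on infused WT arrays, against 184 to 244 on vehicle WT arrays. Of 10 smooth muscle genes 0 rose and 1 to 4 fell, with sums of 1260 to 2070 on infused KO arrays against 1790 to 2110 on vehicle KO arrays. The WT smooth muscle sums were 2060 to 2620 on infused arrays and 2340 to 3020 on vehicle arrays. Their part in the rise of the mitotic genes was not tested.

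Fibroblast genes moved in both directions. They were called higher for 1 to 3 and lower for 4 to 6 of 10, with sums of 701 to 947 on infused KO arrays against 861 to 1040 on vehicle KO arrays, and of 665 to 856 on infused WT arrays against 742 to 870 on vehicle WT arrays. Endothelial genes were called higher for 1 to 4 of 9 and lower for 0, with sums of 59.8 to 103 on infused KO arrays against 52.1 to 90.2 on vehicle KO arrays, and of 69.8 to 89.5 on infused WT arrays against 56.6 to 72.5 on vehicle WT arrays. Of 6 neutrophil genes 1 was called higher in each comparison and 0 lower. Ly6g, Csf3r and Camp were well above background on all 24 arrays, S100a9 on 21 and S100a8 on 20, and Ngp, a granule gene of the lineage, on 0. Cxcr2 was so on 3 infused KO and 2 infused WT arrays and on no other. Retnlg was so on 7 arrays, of which 1 was a vehicle array. Mmp8 was so on 1 infused KO and 1 infused WT array, and Ltf on 1 salt-infused KO and 1 WT salt array. Thymocytes and developing red cells divide quickly. Of the thymocyte genes Dntt, Cd4 and Cd1d1 were well above background on all 24 arrays and Themis on 0. Cd8b1 was so on 10 arrays, Rag1 on 9, Cd8a and Ptcra on 8 each and Rag2 on 4, in each case mostly vehicle arrays. Of the erythroid genes Hba-a1, Alas2, Epor and Tfrc were well above background on all 24 arrays and the regulator Klf1 on 1. No thymocyte gene was called higher and up to 3 of 8 were called lower. Of 5 erythroid genes 1 was called higher in each comparison and up to 1 lower.

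Arrays of one group differed in how high the whole set stood. The third infused KO array was the lowest of its group for 39 of 40 members; the median member stood at -0.59 there, against 1.94 and 2.32 on the other infused KO arrays. On that array the macrophage sum was 211, against 331 and 316 on the other infused KO arrays, and the smooth muscle sum was 2070, against 1376 and 1396. It also lies on another slide. The third infused WT array was lowest for 38 members and the second salt-infused WT array for 39. The median SD over members was 0.43 in salt-infused KO, 1.48 in infused KO, 0.21 in KO salt, 0.33 in KO control, 0.65 in salt-infused WT, 0.75 in infused WT, 0.27 in WT salt and 0.43 in WT control aortas.

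Promoters of mitotic genes are known in mouse and human cells for 2 short elements near the start: the cell cycle genes homology region (CHR), read by the MuvB complexes with B-MYB or FOXM1, and CCAAT boxes, read by NF-Y. Windows from 250 bases before to 50 after the start, from RefSeq on GRCm38.p6, were given for 32 of the 40 members, in 34 windows. Letters TTTGAA or TTCGAA on either strand stood in 79.4% of the 34 windows, against 19.2% of 32851 windows of the same length, and CCAAT on either strand in 73.5% against 37.4%. At least 2 CCAAT boxes stood in 17 of the 34, against 11.7% of all windows, and both elements in 64.7% against 7.5%. Letter strings used for E2F sites (TTCCCGCC, TTTCCCGC and TTTGGCGC, both strands) stood in 2.9% against 3.2%. Matches to CHR letters lay at a median of 3 bases after the start and CCAAT matches at 55 bases before it, and 1 pair overlapped, in Cdca8. Such matches describe letters and are no measure of binding.

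The windows of 8 members, at least 1 from each role, are shown. They were chosen for having matches and do not represent the windows of all members. Each runs from 150 bases before to 30 after the start on the gene's own strand; capitals mark CHR letters and CCAAT boxes on either strand. They lie at chr10:69352883-69353062 (Cdk1, minus strand), chr9:70421525-70421704 (Ccnb2, minus), chr4:118437314-118437493 (Cdc20, minus), chr4:124936888-124937067 (Cdca8, minus), chr5:30666736-30666915 (Cenpa, plus), chr19:37376232-37376411 (Kif11, plus), chr9:61946770-61946949 (Kif23, minus) and chr11:99024160-99024339 (Top2a, minus).
Cdk1: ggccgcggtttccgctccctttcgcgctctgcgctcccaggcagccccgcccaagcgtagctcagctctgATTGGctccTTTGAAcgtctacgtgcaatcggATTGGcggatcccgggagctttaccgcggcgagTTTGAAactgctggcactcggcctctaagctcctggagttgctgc
Ccnb2: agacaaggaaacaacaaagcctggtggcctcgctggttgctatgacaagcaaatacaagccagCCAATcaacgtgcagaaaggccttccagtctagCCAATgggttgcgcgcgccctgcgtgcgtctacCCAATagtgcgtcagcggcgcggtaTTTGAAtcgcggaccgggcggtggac
Cdc20: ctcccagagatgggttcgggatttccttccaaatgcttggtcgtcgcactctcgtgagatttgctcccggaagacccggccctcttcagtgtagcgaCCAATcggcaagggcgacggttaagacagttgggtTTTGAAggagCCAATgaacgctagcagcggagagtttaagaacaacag
Cdca8: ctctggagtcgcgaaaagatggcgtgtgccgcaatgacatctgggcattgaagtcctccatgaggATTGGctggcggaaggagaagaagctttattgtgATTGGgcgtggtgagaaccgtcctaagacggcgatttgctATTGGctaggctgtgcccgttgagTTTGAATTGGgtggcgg
Cenpa: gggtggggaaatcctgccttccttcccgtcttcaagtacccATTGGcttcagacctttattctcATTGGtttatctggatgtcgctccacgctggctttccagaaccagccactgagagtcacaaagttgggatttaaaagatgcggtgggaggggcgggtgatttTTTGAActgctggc
Kif11: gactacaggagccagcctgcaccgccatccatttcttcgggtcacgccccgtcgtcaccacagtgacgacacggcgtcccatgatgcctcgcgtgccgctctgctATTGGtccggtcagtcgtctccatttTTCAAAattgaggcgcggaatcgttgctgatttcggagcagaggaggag
Kif23: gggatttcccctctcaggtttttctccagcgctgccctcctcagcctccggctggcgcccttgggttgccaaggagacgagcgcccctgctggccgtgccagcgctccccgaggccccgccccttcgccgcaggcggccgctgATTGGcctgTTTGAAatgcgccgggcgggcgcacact
Top2a: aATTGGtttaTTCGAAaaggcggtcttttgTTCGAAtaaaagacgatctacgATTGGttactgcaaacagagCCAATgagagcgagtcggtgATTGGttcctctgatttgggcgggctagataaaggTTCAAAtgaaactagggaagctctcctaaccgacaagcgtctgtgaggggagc

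**Figure D3:**
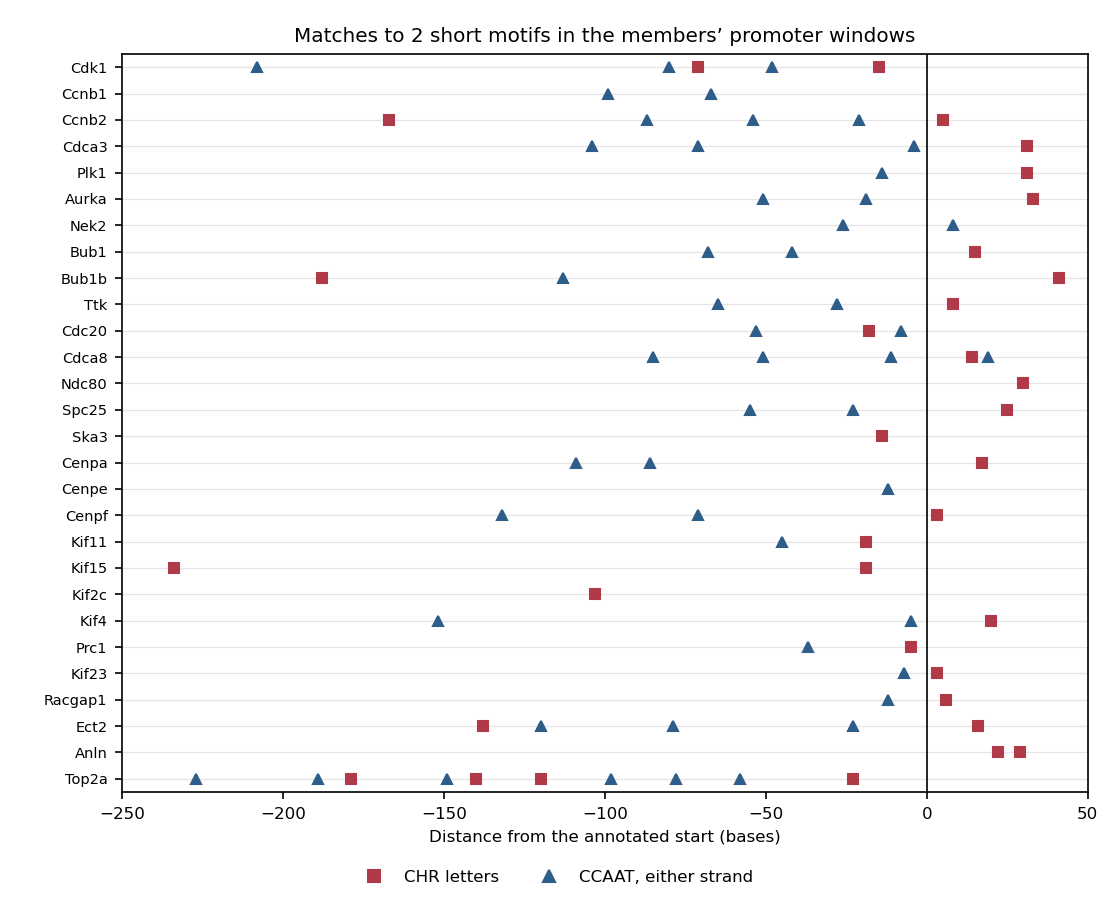
Positions of matches to CHR letters (squares) and CCAAT boxes (triangles), in bases from the annotated start, in the windows of the 28 members with a match. CHR letters gather around the start, with 27 of 37 matches within 50 bases of it, and CCAAT boxes lie mostly before it.

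Mitotic entry rose as a group: 8 of 8 of its members were called higher in each comparison, with median log2 changes of 5.10, 4.20, 4.27 and 4.11 in KO with salt, KO on plain water, WT with salt and WT on plain water. The values of each member below keep this order of comparisons. In this role Cdk1 and Nek2 passed the filter only through an infused group. Cdk1, the kinase that starts mitosis, is a clear case. Its level was 1.53, 0.52 and 0.80 in salt-infused KO aortas, against -4.36, -4.26 and -4.34 in KO salt aortas. It was 1.43, 1.69 and -0.93 in infused KO aortas, against -3.41, -3.93 and -4.77 in KO controls. In WT it was 0.69, -0.40 and 1.17 in salt-infused aortas, against -3.96, -4.27 and -5.57 in salt aortas, and 1.13, 0.96 and -0.56 in infused aortas, against -5.54, -4.97 and -4.14 in controls. No infused array came near a vehicle array of its genotype. The log2 change was 5.27, 4.77, 5.08 and 5.39 (SE 0.64, adjusted p = 2.39e-05 to 8e-05), or 38.6-fold, 27.3-fold, 33.9-fold and at least 31.6-fold. Its probe was well above background on 2 of 3 vehicle arrays in the first 3 comparisons and on 0 in the last, hence the bound.

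Ccnb1 is cyclin B1, the partner that activates Cdk1. It stood at 2.68, 1.61 and 1.85 in salt-infused KO aortas, against -3.27, -3.49 and -3.16 in KO salt aortas, and at 2.57, 2.94 and -0.09 in infused KO aortas, against -2.30 and -2.92 on the 2 KO control arrays with a value. In WT the salt-infused arrays gave 2.0, 1.02 and 2.38, against -2.19, -1.86 and -2.37 on salt arrays, and the infused arrays 2.43, 2.32 and 0.83, against -2.30, -2.33 and -1.43 on control arrays. All infused arrays stood above all vehicle arrays. The log2 change was 5.35, 4.42, 3.94 and 3.88 (SE 0.61 to 0.68, adjusted p = 1.83e-05 to 0.000403), and the KO call on plain water was lost with the authors' processed values. Plk1, a kinase that acts from mitotic entry to cytokinesis, gave 3.38, 2.55 and 2.82 in salt-infused KO aortas, against -1.93, -1.91 and -1.68 in KO salt aortas, and 3.33, 3.32 and 0.70 in infused KO aortas, against -1.11, -1.35 and -1.72 in KO controls. Its WT values were 2.25, 1.37 and 2.69 in salt-infused aortas, against -1.38, -1.30 and -1.5 in salt aortas, and 2.87, 2.61 and 1.02 in infused aortas, against -1.44, -1.99 and -1.03 in controls. The groups stood apart throughout, and the change was 4.76, 3.85, 3.5 and 3.66 (SE 0.56, adjusted p = 1.89e-05 to 0.000286), or 27-fold, 14.4-fold, 11.3-fold and 12.6-fold.

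The remaining members of mitotic entry moved alike. Ccna2, cyclin A2, which acts in S phase and early mitosis, changed by 4.93, 4.27, 4.35 and 4.27 on the log2 scale. Ccnb2, another cyclin B, changed by 4.88, 4.14, 4.13 and 3.81, and Cdca3, which takes part in the destruction of the mitosis inhibitor Wee1, by 5.43, 4.63, 4.61 and 4.64. Aurka, the kinase of spindle poles, changed by 4.53, 3.93, 4.21 and 3.95. Nek2, a kinase that separates centrosomes, gave -0.05, -0.87 and -0.80 in salt-infused KO aortas, against -6.58, -6.63 and -6.68 in KO salt aortas, where no array was well above background. Its infused KO arrays gave -0.35, -0.31 and -2.71, against -4.85, -4.84 and -5.54 on KO control arrays. Salt-infused WT aortas gave -0.60, -1.34 and -0.34, against -5.51, -3.98 and -5.77 in WT salt aortas, and infused WT aortas -0.36, -0.83 and -1.91, against -4.60, -6.89 and -6.03 in WT controls. Its fitted change was 6.06, 3.95, 4.33 and 4.80 (SE 0.63, adjusted p = 8.21e-06 to 0.0003), or at least 14.7-fold, at least 10.8-fold, at least 12.4-fold and at least 10.8-fold; 1 of 3 WT salt arrays measured it and no array of the other vehicle groups.

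Checkpoint genes rose as well, 5 of 5 in each comparison, with median log2 changes of 3.17, 2.91, 3.25 and 3.4. Among them Bub1 and Ttk passed the filter only through an infused group. Mad2l1 encodes MAD2, which holds back the anaphase-promoting complex. It stood at 2.5, 1.86 and 2.07 in salt-infused KO aortas, against -0.13, -0.56 and -0.40 in KO salt aortas, and at 2.65, 2.92 and 0.54 in infused KO aortas, against -0.24, -0.26 and -0.17 in KO controls. The WT values were 2.01, 1.11 and 2.33 in salt-infused aortas, against -0.85, -0.92 and -1.06 in salt aortas, and 2.22, 2.04 and 0.96 in infused aortas, against -1.05, -0.73 and -0.94 in controls. Every array was well above background, and infused and vehicle arrays did not overlap. The change of 2.51, 2.26, 2.76 and 2.64 (SE 0.45, adjusted p = 0.000332 to 0.00137) was 5.68-fold, 4.79-fold, 6.78-fold and 6.25-fold.

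Bub1b encodes BUBR1, a partner of MAD2 in the checkpoint complex. Its levels were -0.11, -0.87 and -0.64 in salt-infused KO aortas, against -3.30, -4.17 and -3.66 in KO salt aortas, and -0.42, -0.04 and -2.77 in infused KO aortas, against -3.77, -4.21 and -4.01 in KO controls. In WT they were -0.46, -1.40 and -0.05 in salt-infused aortas, against -3.51, -3.32 and -3.66 in salt aortas, and -0.07, -0.37 and -1.45 in infused aortas, against -4.23, -3.54 and -3.4 in controls. Among the 22 members measured on all vehicle arrays it varied least over the 4 comparisons, with changes of 3.17, 2.91, 2.86 and 3.09 (SE 0.53, adjusted p = 0.000442 to 0.000793). Bub1, a kinase that recruits checkpoint proteins to kinetochores, was not well above background on any vehicle array, and was higher by at least 17.9-fold, at least 15.5-fold, at least 16.2-fold and at least 14-fold. Ttk encodes MPS1, the kinase that starts checkpoint signalling. It was likewise measured on no vehicle array, and on 2 of 3 infused KO and 2 of 3 salt-infused WT arrays, with bounds of at least 2.96-fold, at least 2.58-fold, at least 2.15-fold and at least 2.41-fold. Cdc20, the activator of the anaphase-promoting complex that the checkpoint holds in check, changed by 4.22, 3.60, 3.38 and 3.4.

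The chromosomal passenger complex corrects faulty attachments and marks the plane of division. Of its 4 members 3 were tested and rose in each comparison, with medians of 4.55, 3.86, 3.98 and 3.95. Birc5 encodes survivin, the subunit that docks the complex on centromeres. Its level was 4.74, 4.12 and 4.35 in salt-infused KO aortas, against -0.44, -0.61 and -0.40 in KO salt aortas, and 4.92, 5.05 and 2.32 in infused KO aortas, against 0.22, -0.14 and -0.40 in KO controls. The WT levels were 4.39, 3.49 and 4.86 in salt-infused aortas, against 0.01, 0.26 and -0.03 in salt aortas, and 4.77, 4.52 and 3.23 in infused aortas, against -0.08, -0.31 and 0.62 in controls. The lowest infused array, the third of infused KO, was still above each vehicle array. The change was 4.89, 4.21, 4.17 and 4.09 (SE 0.54, adjusted p = 1.33e-05 to 0.000107), or 29.6-fold, 18.5-fold, 18-fold and 17.1-fold. Cdca8, or borealin, changed by 4.55, 3.86, 3.98 and 3.95. Incenp, the scaffold that activates the kinase, changed less, by 2.33, 1.81, 1.92 and 1.88 (SE 0.33, adjusted p = 0.000125 to 0.000855).

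Aurkb was near or below the limit of measurement. It gave -5.24, -5.55 and -7.02 on salt-infused KO arrays, against -6.44, -6.49 and -6.60 on KO salt arrays, and -6.48, -6.34 and -6.13 on infused KO arrays, against -6.39, -6.61 and -6.02 on KO control arrays. The WT values were -6.24, -6.52 and -5.45 on salt-infused arrays, against -6.84, -6.78 and -6.48 on salt arrays, and -4.56, -5.23 and -4.33 on infused arrays, against -6.69, -6.21 and -5.18 on control arrays. The first infused WT array was the 1 well above background, and no test was made.

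Kinetochore and centromere genes gave 9, 8, 9 and 8 calls of 9, with medians of 4.73, 4.05, 4.30 and 3.90. Among them Cenpf, Nuf2, Ska1 and Ska3 passed the filter only through an infused group. Ndc80 encodes the subunit of the outer kinetochore that grips microtubules. Its levels were -0.09, -0.77 and -0.52 in salt-infused KO aortas, against -3.72, -2.66 and -3.47 in KO salt aortas, and 0.03, 0.20 and -1.83 in infused KO aortas, against -3.46, -3.79 and -3.64 in KO controls. In WT they were 0.03, -0.53 and 0.26 in salt-infused aortas, against -1.58, -1.93 and -2.09 in salt aortas, and 0.05, 0.30 and 0.19 in infused aortas, against -1.49, -1.79 and -1.28 in controls. The infused levels of both genotypes lay close together, apart from the third infused KO array, while KO vehicle arrays stood below WT vehicle arrays. The change was 2.82, 3.10, 1.79 and 1.70 (SE 0.39, adjusted p = 5.39e-05 to 0.00444), or 7.06-fold, 8.56-fold, 3.46-fold and 3.25-fold. The WT call on plain water was lost with slide as a fixed or as a random block.

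Cenpa, the histone variant that marks centromeres, gave 2.67, 1.57 and 1.70 in salt-infused KO aortas, against -1.78, -1.95 and -1.69 in KO salt aortas, and 2.40, 2.72 and -0.31 in infused KO aortas, against -1.57, -1.79 and -1.88 in KO controls. Its WT levels were 2.0, 1.12 and 2.32 in salt-infused aortas, against -1.77, -1.39 and -1.93 in salt aortas, and 2.46, 1.99 and 0.76 in infused aortas, against -1.73, -1.47 and -1.33 in controls. The change was 3.79, 3.35, 3.51 and 3.24 (SE 0.57, adjusted p = 0.000187 to 0.000773). Cenpe, a kinesin that carries chromosomes to the spindle equator, stood higher than vehicle on each infused array. It gave 3.5, 2.83 and 2.85 in salt-infused KO aortas, against -1.73, -1.84 and -1.44 in KO salt aortas, and 3.45, 3.63 and 0.67 in infused KO aortas, against -0.90, -1.38 and -1.72 in KO controls. Its WT levels were 2.82, 1.88 and 3.13 in salt-infused aortas, against -0.89, -0.54 and -1.0 in salt aortas, and 3.18, 3.08 and 1.75 in infused aortas, against -1.07, -1.10 and -0.53 in controls. The change was 4.73, 3.92, 3.42 and 3.57 (SE 0.56, adjusted p = 2.11e-05 to 0.000374).

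Partners of Ndc80 in its complex changed by 4.92, 4.37, 4.55 and 4.52 (Nuf2), 4.48, 4.05, 4.51 and 3.90 (Spc24) and 4.85, 4.31, 4.30 and 4.10 (Spc25). Nuf2 was well above background on 1 of 3 KO salt, 2 of 3 KO control, 1 of 3 WT salt and 0 of 3 WT control arrays. The Ska complex helps kinetochores follow shrinking microtubules. Ska1 gave 0.90, 0.15 and 0.44 in salt-infused KO aortas, against -6.27, -5.93 and -4.79 in KO salt aortas, and 0.95, 1.17 and -1.23 in infused KO aortas, against -5.67, -4.74 and -5.41 in KO controls. In WT it gave 0.48, -0.46 and 0.88 in salt-infused aortas, against -5.73, -4.83 and -4.61 in salt aortas, and 0.81, 0.54 and -0.58 in infused aortas, against -4.63, -6.69 and -3.70 in controls. It was well above background on 1 WT control array and on no other vehicle array. The fitted change of 6.16, 5.57, 5.36 and 5.26 (SE 0.68, adjusted p = 1.33e-05 to 9.73e-05) came to at least 31-fold, at least 29-fold, at least 30.4-fold and at least 24.1-fold. Ska3 was measured on no vehicle array and was higher by at least 7.58-fold, at least 6.57-fold, at least 7.84-fold and at least 7.12-fold.

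Cenpf, a large protein of the outer kinetochore, was dim throughout. It gave -3.4, -4.20 and -4.0 on salt-infused KO arrays, all 3 well above background, against -6.32, -6.18 and -6.45 on KO salt arrays. The infused KO arrays gave -5.12, -3.34 and -5.44, with 1 well above background, against -4.57, -6.48 and -6.02 on KO control arrays. In WT it gave -6.16, -4.26 and -3.86 on salt-infused arrays, against -6.19, -6.67 and -6.44 on salt arrays, and -4.32, -4.88 and -5.41 on infused arrays, against -4.95, -6.69 and -6.12 on control arrays. On each of these 2 infused WT groups 1 array was well above background, and no vehicle array of either genotype was. The test was passed in KO with salt (log2 change 2.45, adjusted p = 0.00747, at least 1.5-fold) and in WT with salt (1.67, adjusted p = 0.0425). It was not passed on plain water in KO (1.06, adjusted p = 0.207) or in WT (1.05, adjusted p = 0.222). The KO salt call was lost with normexp background correction. The WT call with salt was lost with no filter on dim probes, with normexp background correction, with only the groups compared, with slide as a fixed or a random block, on the arrays of 1 slide and with the replicate number as a block. It was also lost without any 1 of the WT salt arrays and without the second or the third salt-infused WT array.

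Spindle motors and assembly factors gave 5, 6, 6 and 6 calls of 6, with medians of 4.27, 3.74, 4.01 and 3.81. Among them Kif11, Kif15, Kif2c and Kif4 passed the filter only through an infused group. Kif11 encodes the kinesin Eg5, which pushes the spindle poles apart. It stood at -0.41, -1.19 and -0.96 in salt-infused KO aortas, against -5.36, -5.49 and -4.55 in KO salt aortas, and at -0.55, -0.28 and -2.54 in infused KO aortas, against -4.04, -5.53 and -5.27 in KO controls. The WT values were -0.42, -1.45 and -0.29 in salt-infused aortas, against -4.92, -4.78 and -4.93 in salt aortas, and -0.40, -0.22 and -1.60 in infused aortas, against -4.73, -5.35 and -3.84 in controls. Infused arrays were measured throughout, and of the vehicle arrays 1 in KO controls and 1 in WT controls. The change was 4.28, 3.83, 4.16 and 3.90 (SE 0.55, adjusted p = 4.14e-05 to 0.000157), or at least 12.1-fold, at least 10.2-fold, at least 15-fold and at least 12.5-fold.

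Tpx2, which activates Aurora A and nucleates spindle microtubules, gave 2.45, 1.47 and 1.71 in salt-infused KO aortas, against -2.54, -2.35 and -2.29 in KO salt aortas, and 2.28, 2.41 and 0.01 in infused KO aortas, against -2.29, -1.93 and -2.08 in KO controls. In WT it gave 1.23, 0.67 and 2.01 in salt-infused aortas, against -2.37, -1.88 and -3.0 in salt aortas, and 2.05, 1.57 and 0.51 in infused aortas, against -2.25, -2.53 and -2.23 in controls. Its change was 4.27, 3.67, 3.72 and 3.71 (SE 0.51, adjusted p = 2.18e-05 to 0.000136). Nusap1, which binds and bundles spindle microtubules, changed by 4.15, 3.58, 3.51 and 3.64. Kif2c, a kinesin that takes microtubules apart, was measured on no vehicle array and was higher by at least 8.84-fold, at least 8.21-fold, at least 8.39-fold and at least 7.81-fold. Kif4, a chromosome-bound kinesin, was higher by at least 14.7-fold, at least 13.9-fold, at least 11.5-fold and at least 11.6-fold, with 1 of 3 WT salt arrays measured and no array of the other vehicle groups.

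Kif15, a kinesin that helps keep the spindle bipolar, was uneven in KO salt aortas. It gave -2.70, -3.36 and -3.30 in salt-infused KO aortas, against -6.63, -6.67 and -2.42 in KO salt aortas, where the third array stood above all 3 salt-infused ones. The change of 2.12 did not pass (SE 0.86, adjusted p = 0.0782), and it passed without the third KO salt array. Infused KO aortas gave -2.56, -2.39 and -4.80, against -5.84, -6.51 and -5.62 in KO controls (at least 2.48-fold, adjusted p = 0.0221). In WT the levels were -2.61, -4.08 and -2.02 in salt-infused aortas, against -6.99, -6.92 and -6.73 in salt aortas (at least 3.30-fold, adjusted p = 0.00242), and -2.42, -2.48 and -3.77 in infused aortas, against -6.84, -5.94 and -5.58 in controls (at least 3.0-fold, adjusted p = 0.0108).

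**Figure D4:**
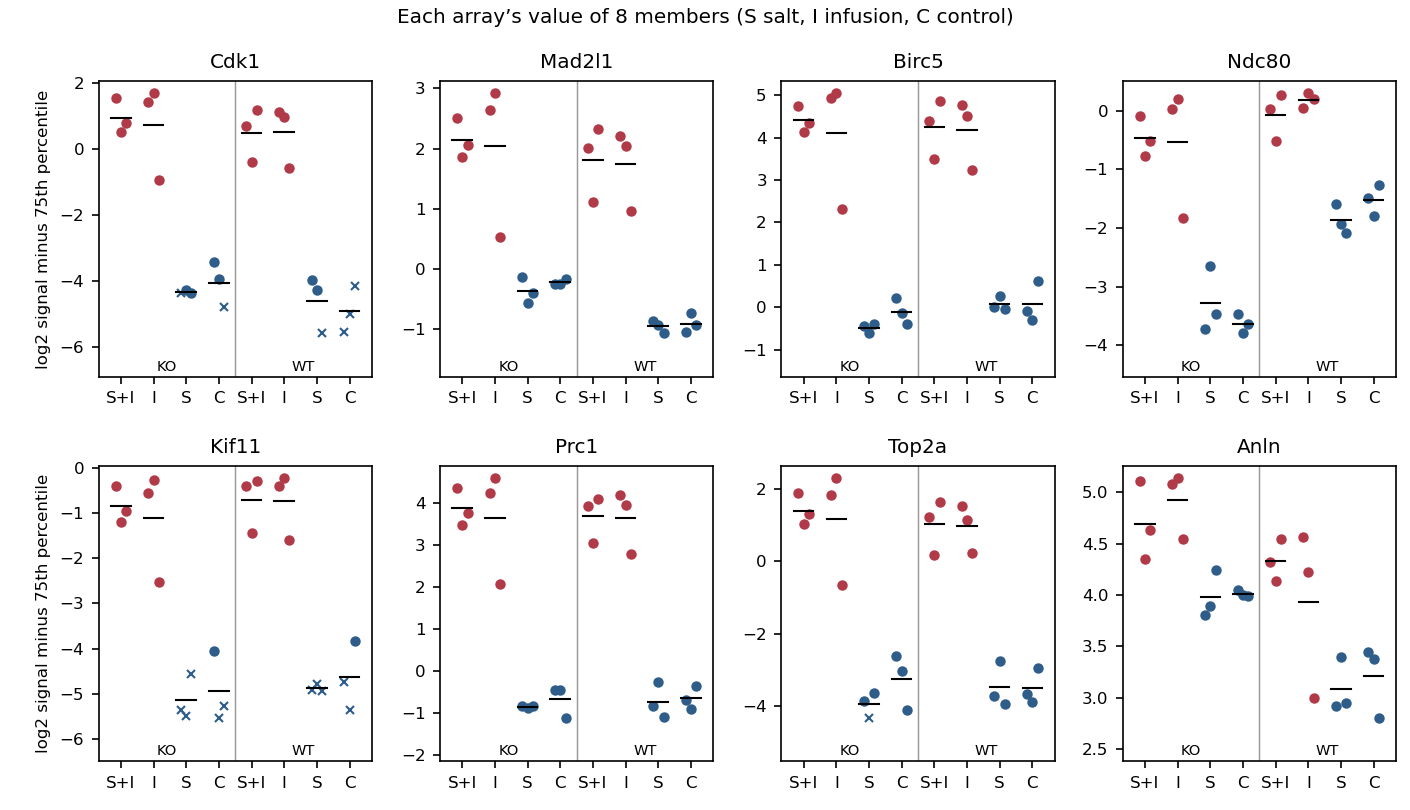
Levels of Cdk1, Mad2l1, Birc5, Ndc80, Kif11, Prc1, Top2a and Anln on each array of the 8 groups, as log2 signal relative to the array's 75th percentile; red points are infused, blue vehicle, crosses not well above background, and bars group means (n = 3). Within each genotype, infused and vehicle arrays are apart in 7 of these genes, and close together in Anln.

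Cytokinesis genes gave 6, 7, 7 and 6 calls of 7, with medians of 4.11, 3.76, 3.75 and 4.09. Prc1 crosslinks the microtubules of the central spindle. Its levels were 4.37, 3.49 and 3.78 in salt-infused KO aortas, against -0.83, -0.87 and -0.83 in KO salt aortas, and 4.25, 4.61 and 2.08 in infused KO aortas, against -0.45, -0.45 and -1.11 in KO controls. The WT levels were 3.94, 3.04 and 4.10 in salt-infused aortas, against -0.84, -0.26 and -1.10 in salt aortas, and 4.19, 3.95 and 2.79 in infused aortas, against -0.68, -0.89 and -0.34 in controls. All arrays were well above background and no groups overlapped. The change was 4.72, 4.32, 4.42 and 4.28 (SE 0.50, adjusted p = 8.21e-06 to 6.15e-05), or 26.4-fold, 19.9-fold, 21.4-fold and 19.5-fold.

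Kif20a, a kinesin of the central spindle, gave 3.09, 2.40 and 2.48 in salt-infused KO aortas, against -2.37, -2.79 and -2.24 in KO salt aortas, and 2.95, 3.26 and 0.13 in infused KO aortas, against -2.23, -2.34 and -2.84 in KO controls. Its WT levels were 2.30, 1.42 and 2.64 in salt-infused aortas, against -2.78, -2.24 and -2.76 in salt aortas, and 2.68, 2.27 and 1.29 in infused aortas, against -2.69, -2.65 and -2.16 in controls. The change was 5.12, 4.58, 4.71 and 4.58 (SE 0.57, adjusted p = 1.33e-05 to 7.53e-05), or 34.9-fold, 24-fold, 26.2-fold and 23.9-fold. Ect2 switches on RhoA, which builds the contractile ring. It gave 1.38, 0.65 and 0.63 in salt-infused KO aortas, against -2.77, -2.92 and -2.63 in KO salt aortas, and 1.41, 1.74 and -1.01 in infused KO aortas, against -2.24, -2.39 and -2.75 in KO controls. For WT it was 0.73, -0.02 and 1.01 in salt-infused aortas, against -3.0, -2.58 and -3.28 in salt aortas, and 0.94, 0.70 and -0.34 in infused aortas, against -3.07, -3.14 and -2.87 in controls. The change was 3.65, 3.17, 3.53 and 3.46 (SE 0.50, adjusted p = 8.25e-05 to 0.000277).

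Kif23 and Racgap1, the 2 parts of the centralspindlin complex that recruits Ect2, changed by 4.11, 3.76, 3.75 and 4.09 and by 4.03, 3.49, 3.06 and 3.19. Shcbp1, a partner of Racgap1 at the midbody, changed by 5.49, 4.81, 5.18 and 5.0 (SE 0.63, adjusted p = 1.67e-05 to 8.6e-05), or 44.8-fold, 28-fold, 36.4-fold and 32.1-fold, with 2 of 3 arrays measured in WT salt and WT control aortas. Anln encodes anillin, a scaffold of the contractile ring, and stood apart from the rest. All 24 arrays had it well above background, and it changed least, by 0.72, 0.91, 1.25 and 0.72 (SE 0.31). Its levels were 5.11, 4.35 and 4.63 in salt-infused KO aortas, against 3.80, 3.89 and 4.25 in KO salt aortas, and 5.08, 5.14 and 4.55 in infused KO aortas, against 4.05, 4.0 and 3.99 in KO controls. In WT they were 4.33, 4.13 and 4.54 in salt-infused aortas, against 2.91, 3.39 and 2.95 in salt aortas, and 4.57, 4.22 and 2.99 in infused aortas, against 3.45, 3.38 and 2.80 in controls. It rose in infused KO aortas (adjusted p = 0.0307) and in salt-infused WT aortas (adjusted p = 0.00531). The KO call was lost without any 1 of the KO control arrays and without the first or the second infused KO array. The other 2 comparisons did not pass, KO with salt at adjusted p = 0.0932 and WT on plain water at adjusted p = 0.0922, where the groups overlapped.

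Top2a, the enzyme that untangles sister DNA before anaphase, gave 1.88, 1.02 and 1.29 in salt-infused KO aortas, against -3.86, -4.31 and -3.62 in KO salt aortas, and 1.82, 2.31 and -0.64 in infused KO aortas, against -2.62, -3.03 and -4.10 in KO controls. In WT it gave 1.23, 0.17 and 1.64 in salt-infused aortas, against -3.70, -2.74 and -3.94 in salt aortas, and 1.52, 1.13 and 0.22 in infused aortas, against -3.65, -3.88 and -2.94 in controls. The groups were apart in each comparison. The change was 5.33, 4.41, 4.48 and 4.45 (SE 0.61, adjusted p = 1.52e-05 to 0.000128), or 40.2-fold, 21.3-fold, 22.3-fold and 21.9-fold, with 2 of 3 KO salt arrays well above background.

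The infusion results were read within slides where the slides allow it. On the 1 slide that holds the first 2 infused KO arrays with the KO controls, 37 members rose, with a median of 4.76, where 19.6% of all genes were called higher. On the slide that holds the first 2 salt-infused WT arrays with the WT salt arrays 38 rose, with a median of 3.81 (12.9% of all genes). Salt-infused KO and KO salt arrays share no slide, and with slide as a fixed block the median there was 7.07. That estimate ties the slides through the third infused KO array alone. Infused WT arrays and WT controls also share no slide. With slide as a fixed block 23 members passed in that WT comparison, with a median of 3.17, where 0.728% of all genes were called higher. With slide as a random block 34 passed (1.71% of all genes), and the calls of Kif15, Ndc80 and Ttk were lost.

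Genes that work beside the members were taken from lists of their own, which are named here for infused WT aortas against WT controls. In that comparison 12.2% of all genes were called higher and 13.7% lower. Of 26 other centromere and kinetochore genes 22 rose and 0 fell, with a median log2 change of 2.21. Kntc1, a checkpoint protein, was at least 15.1-fold higher, Cenpm at least 10.2-fold, and Nsl1 rose by 2.88. Of 21 other mitotic kinesins and spindle genes 19 rose and 0 fell, with a median of 3.51. Mki67, the antigen Ki-67, rose by 4.21, Spag5 by 4.50 (2 of 3 control arrays measured), Melk by 4.87 (1 of 3 control arrays measured), and Kif18b was at least 4.52-fold higher. Of 27 DNA replication genes 23 rose and 0 fell, with a median of 1.81, Tk1 by 4.17 and Mcm5 by 2.60.

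Lists of regulators were mixed in the same comparison, where 12.2% of all genes were called higher and 13.7% lower. Counts near those shares are no result about a list. Of 22 transcription regulators of mitotic genes 8 rose and 4 fell, with a median of 0.23. Foxm1 gave 0.47, 0.33 and -0.70 in infused WT aortas, against -3.18, -3.55 and -2.83 in WT controls, a 9.33-fold rise (adjusted p = 8.82e-05). E2f7 rose by 3.42 (1 of 3 control arrays measured), Mybl2, which encodes B-MYB, by 1.89 and E2f1 by 1.87. Lin52, a subunit of MuvB, fell by 0.64, Rbl2, the repressor p130 that joins MuvB in resting cells, by 0.69, and Nfya, a subunit of NF-Y, by 0.66. Of 19 G1 cyclins, kinases and inhibitors 11 rose and 3 fell. Ccne1, cyclin E1, rose by 2.93, and Cdkn3, a phosphatase of cyclin-dependent kinases, by 4.15, whereas Ccnd2 fell by 0.79 and the inhibitors Cdkn1b and Cdkn1c fell by 0.54 and 0.79.

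Of 18 genes of the anaphase-promoting complex and its partners 4 rose and 3 fell, against 12.2% of all genes called higher and 13.7% lower. With a list this short, counts so near those shares are no result about the list. Ube2c, the enzyme that passes ubiquitin to the complex, rose by 3.68, Ube2s by 1.92, Espl1, or separase, by 1.46 and Fbxo5, an inhibitor of the complex, by 1.44. Pttg1, which encodes securin, fell by 0.88, Anapc10 by 0.64 and Anapc7 by 0.46. Of 19 condensin and cohesin genes 10 rose and 2 fell. Cdca5, or sororin, rose by 4.06, Ncaph by 3.4, Sgo1, the shugoshin that guards centromeric cohesion, by 3.09 and Ncapg2 by 2.29. The cohesin subunits Stag2 and Stag1 fell by 0.65 and 0.46. In the other 3 infusion comparisons 20 to 24 of the 26 kinetochore genes, 18 to 20 of the 21 spindle genes and 24 to 25 of the 27 replication genes rose, and none of these lists had a gene that fell. Over all genes 13.3% to 16.3% were called higher in those comparisons.

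Salt moved no member past the threshold, with the infusion or without it. Salt-infused KO aortas against infused KO aortas gave 0 calls of 39 (0.00425% of all genes), a median log2 difference of 0.30 and 38 positive values, between -0.23 for Anln and 0.76 for Cenpf. Salt-infused WT aortas against infused WT aortas gave 0 calls (0% of all genes), a median of 0.03 and 21 positive values. KO salt aortas against KO controls gave 0 calls (0% of all genes), a median of -0.31 and 5 positive values. WT salt aortas against WT controls gave 0 calls (0% of all genes), a median of -0.05 and 17 positive values. At an unadjusted p under 0.05, 1 member passed in KO vehicle aortas by limma, Nek2 (-1.55, 95% interval -2.87 to -0.24), where neither group was well above background, and 0 in the other 3. No other tool was run. A member's 95% interval reached 1.17 log2 units to either side at the median, between 0.641 for Anln and 1.81 for Kif15.

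The KO result under infusion rests on 1 array. Without the third infused KO array the median of salt-infused against infused KO aortas was -0.57 in place of 0.30, again with 0 calls. With slide as a fixed block it was 1.99 with 12 calls (0.749% of all genes higher), an estimate that ties the slides through that same array. On the slide that it shares with the 3 salt-infused KO arrays it is the only infused KO array, so that slide cannot decide the comparison. The median member stood at -0.59 on it, against 1.93, 1.08 and 1.28 on the salt-infused KO arrays.

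**Figure D5:**
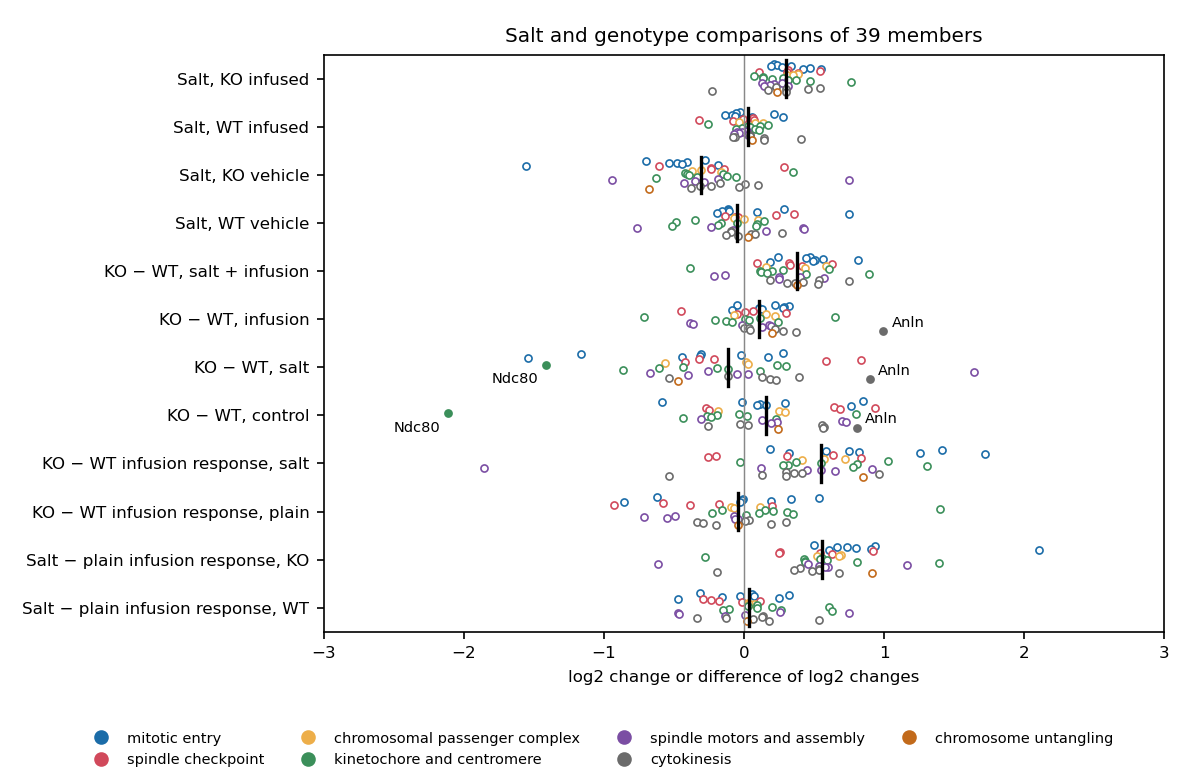
Log2 difference of each of 39 members (points, coloured by role) in the 4 salt comparisons, the 4 genotype comparisons and 4 differences of infusion responses; filled points passed the threshold and black bars are medians. Only Ndc80 and Anln have filled points, and all of them lie in comparisons of KO with WT.

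Between the genotypes 2 members differed, in opposite directions. In KO against WT controls 1 member was called higher (14.4% of all genes) and 1 lower (22.7% of all genes). In KO against WT salt aortas it was again 1 higher (15.8% of all genes) and 1 lower (23.5% of all genes). Infused KO against infused WT aortas gave 1 higher (18.8% of all genes) and 0 lower (27.3% of all genes, 46.1% in either direction), and salt-infused KO against salt-infused WT aortas 0 (28.6% of all genes in either direction). These shares of members lie under the shares of all genes. The medians over 39 members were 0.16 in controls, -0.11 with salt, 0.10 with the infusion and 0.38 with both, where 36 of 39 values were positive.

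Ndc80 was the lower one in vehicle aortas. Levels of -3.46, -3.79 and -3.64 in KO controls stood against -1.49, -1.79 and -1.28 in WT controls, a difference of -2.11 (SE 0.39, adjusted p = 0.000378), or 4.33-fold lower. In salt aortas the levels were -3.72, -2.66 and -3.47 in KO, against -1.58, -1.93 and -2.09 in WT, a difference of -1.41 (SE 0.39, adjusted p = 0.00796). With the infusion the difference did not pass, at -0.71 (adjusted p = 0.141) on plain water and -0.38 (adjusted p = 0.485) with salt. Its change with the infusion was thus 3.10 in KO and 1.70 in WT on plain water. The difference of 1.40 (95% interval 0.25 to 2.55) did not pass after adjustment over all genes (adjusted p = 0.670 by limma).

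Anln was the higher one. It differed by 0.80 between KO and WT controls (SE 0.31, adjusted p = 0.0464), by 0.90 between KO and WT salt aortas (adjusted p = 0.0265) and by 1.0 between infused KO and infused WT aortas (adjusted p = 0.0128), where the groups overlapped. Between salt-infused KO and WT aortas the difference of 0.36 did not pass (adjusted p = 0.395). The call in controls was lost when any 1 of its 6 arrays was left out, and all 3 calls were lost with slide as a random block. One probe stands for each of the 2 genes, and its sequence is shown because the genotype calls rest on it alone. The Ndc80 probe lies in the gene at mm9 chr17:71860793-71861755, minus strand, over a span longer than the probe, and the Anln probe at mm9 chr9:22136685-22136744, minus strand.
Ndc80: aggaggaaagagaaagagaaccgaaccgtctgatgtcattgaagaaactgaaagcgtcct
Anln: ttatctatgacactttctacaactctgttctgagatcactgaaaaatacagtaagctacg

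Differences in the infusion response itself were tested for each member and 0 passed. KO minus WT on plain water gave 0 calls (0% of all genes), a median of -0.04 and 16 of 39 positive values, and at an unadjusted p under 0.05 it was Ndc80 alone. KO minus WT with salt gave 0 calls (0.0596% of all genes, 0.0511% higher and 0.00851% lower), a median of 0.55 and 34 positive values, with 0 at an unadjusted p under 0.05. Salt minus plain water gave 0 calls (0% of all genes) in KO, with a median of 0.55 and 36 positive values, and 0 (0% of all genes) in WT, with a median of 0.04 and 24 positive values. In KO the smallest p was that of Nek2, with a difference of 2.11 (95% interval 0.24 to 3.97). The KO minus WT difference in the effect of salt under infusion had a median of 0.26 and 0 calls (0% of all genes). These differences share groups with the comparisons above, and their 95% intervals reached 1.66 log2 units to either side at the median.

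The third infused KO array weighed on these values too. Without it, 14 members were called higher in infused KO against infused WT aortas (22.5% of all genes), with a median of 0.95 in place of 0.10, and 1 member passed in the KO minus WT response on plain water. Without the third infused arrays of both genotypes, an alternative chosen after the data were seen, the count was 2 (18.5% of all genes) and the median 0.50. Leaving out both also left, through the shared spread, 2 members higher and 4 lower between salt aortas and 2 higher between salt-infused aortas. With all arrays, 15.8% of all genes were called higher and 23.5% lower between salt aortas, and 10.5% higher between salt-infused aortas. The shares without the arrays are not given here for these counts, nor for the 1 member in the KO minus WT response. None of them can be read as particular to the members. The infusion comparisons held without the third infused arrays of both genotypes. In KO on plain water 38 members rose, with a median of 4.76 (20.2% of all genes). In WT on plain water 38 rose, with a median of 4.33 (19.3% of all genes).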

How the data were processed

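Total RNA of mouse aorta (the labels' protocol speaks of cells) was labelled with Cy3 and read on 24 one-colour Agilent arrays, per the labels. The deposited scanner values are linear spot intensities from which Feature Extraction 10.7.1.1 had taken background and spatial trend, per the file headers; the submitters' processing notes name 9.5.1.1. The authors' processed values, deposited as linear intensities whose normalisation is not given in the sources used here, served as an alternative. Log2 of the deposited processed signal minus the array's 75th percentile was used here. After removal of 2910 outlier spots, repeated spots were averaged. Probes well above background throughout 1 or more groups of 3, with 2 or more values per group, were kept: 33374 of 55681, the brightest standing for a gene. One limma 3.58.1 model (lmFit and eBayes, R 4.3.3) over the 8 groups gave 17 comparisons, adjusted by Benjamini-Hochberg over 23503 genes at 0.05. It was tested on simulated data. The WT salt arrays carry different replicate numbers in titles (2 to 4) and source names (1 to 3), and those of the source names were used.

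The members, the gene lists and the tests were chosen with earlier results of these data known. The rule named 16 members chosen by role, with the value of every array, the 2 largest and 2 smallest changes of each infusion comparison, members not called there, and those called for salt or genotype; from each other list up to 4 called genes of smallest p in WT on plain water and up to 3 of opposite direction were named. Promoter windows came from RefSeq on GRCm38.p6, and probe positions from the arrays' mm9 annotation. Some genes that the rule or the marker lists hold are not reported here. Alternatives are named in the closing section. Plots were drawn with matplotlib 3.10.9 in Python 3.11.15.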

Additional observations from a re-analysis of the deposited data

Results flagged for a closer look

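Incenp had a lower mean in KO salt than in KO control aortas and a higher mean in WT salt than in WT control aortas. On vehicle arrays it gave 1.44, 1.41 and 1.03 in KO salt aortas, against 1.51, 1.36 and 1.52 in KO controls, and 1.22, 1.27 and 1.32 in WT salt aortas, against 1.12, 1.21 and 1.18 in WT controls. The KO change minus the WT change was -0.27 on the log2 scale. Each single WT salt array stood above the WT control mean and each KO salt array below the KO control mean. That pattern is the rule by which Incenp was flagged, in a search over all members and several pairs of groups. It is therefore no support for a difference between the genotypes. Single KO salt and KO control arrays overlapped. The difference was not tested, and neither change passed the threshold.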

How the results depend on the processing

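The 4 infusion results kept their direction and stayed within 1.5 times their number of calls under the authors' processed values, the mean of a gene's probes, no filter, normexp correction (offset 50), only the compared groups, a prior variance with a trend, quantile normalisation, slide as a random block, the arrays of 1 slide where possible, and each array left out. The log2 changes of single members with the infusion and the genotype calls of Ndc80 and Anln were followed too. Counting each member, comparison and alternative apart, 67 lost a call, 6 gained one, 1 turned a sign and 2747 stayed the same. With slide as a fixed block 23 members passed for infusion in WT on plain water, where Cenpf came to -0.30 (adjusted p = 0.909 by limma). The calls lost there were those of Aurka, Bub1b, Ccnb1, Cenpa, Incenp, Kif11, Kif15, Kif2c, Kif4, Mad2l1, Ndc80, Plk1, Ska1 and Ttk; infused WT and WT control arrays share no slide, so that fit reaches them only through salt-infused WT arrays. The same block gave 12 calls for salt in infused KO aortas, 2 for the salt difference in the infusion response of KO, and 30 for KO minus WT in the infusion response with salt. Those counts tie the KO slides through the third infused KO array, and the cause was not tested. For the last 2 of them the share of all genes is not given here, so they cannot be read as particular to the members. Restricted to probes well above background on all 24 arrays, 22 members were left and 21 rose for infusion in KO with salt, 22 in KO on plain water, 22 in WT with salt and 21 in WT on plain water, since fewer genes were tested.

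The genotype counts were the least steady. Between controls the count of 2 was 1 with the authors' processed values, with no filter, with quantile normalisation and with slide as a random block, and 5 with only the compared groups. Between salt aortas the count of 2 was 11 with only the compared groups and 1 with slide as a random block. Between infused aortas the count of 1 was 2 with no filter, 0 with only the compared groups, 0 with slide as a random block, and 2 without the third infused arrays of both genotypes. The causes were not tested. For most of these settings the share of all genes is not given here, so the counts cannot be read as particular to the members. Leaving out 1 array of the groups compared at a time gave 37 to 38 calls for infusion in KO with salt, 36 to 38 in KO on plain water, 38 to 39 in WT with salt and 36 to 38 in WT on plain water. It gave 1 to 1 between controls, 1 to 2 between salt aortas, 0 to 14 between infused aortas, where 14 came without the third infused KO array and 0 without the third infused WT array, 0 to 1 for KO minus WT in the infusion response on plain water, and 0 to 0 for the rest. Arrays outside a comparison act through the shared spread: without the third infused KO array 1 member was higher and 1 lower between controls, and 1 higher and 3 lower between salt aortas. Without the third infused arrays of both genotypes it was 2 higher and 1 lower between controls, 2 higher and 4 lower between salt aortas, and 2 higher and 0 lower between salt-infused aortas. For these counts too the share of all genes is not given here, so they cannot be read as particular to the members. All 3 genotype calls of Anln were lost with slide as a random block. The one between infused aortas was also lost with only the compared groups. The Anln call between salt aortas was lost without the third KO salt, the first WT salt or the third WT salt array, and that between infused aortas without the second infused KO array or the third infused WT array. Ccnb1 for infusion in KO on plain water was lost with the authors' processed values, and Bub1b, Incenp, Kif15, Mad2l1 and Ttk there with only the compared groups. Kif15 for infusion in KO with salt passed without the third KO salt array.

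The replicate numbers do not pair the samples: deviations of same-numbered arrays correlated between -0.19 and 0.16. With the replicate number as a block the infusion gave 37 calls in KO with salt, 38 in KO on plain water, 38 in WT with salt and 37 in WT on plain water. The genotype counts under that block were 2 between controls, 3 between salt aortas, 1 between infused aortas and 0 between salt-infused aortas, and the other comparisons had 0.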

Other observations

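Several members had more than 1 probe past the filter: 9 members with 21 probes. Over the 4 infusion comparisons these probes gave 84 fits, of which 83 were called higher and 0 lower. The exception was another probe of Ect2, whose log2 change of 1.02 in infused KO against KO control aortas did not pass. The filter bears on these calls too. A probe that passed it only through an infused group, as that of Kif2c did, had to differ. Of the members' 57 probes 51 passed, and those that failed, among them other probes of Cdk1, Kif23 and Nuf2, were not fitted. The calls are thus no independent check of direction. Bub1, whose probe is printed at 10 spots of each array, was averaged over them. Birc5, Mad2l1, Nuf2 and Nusap1 had neither CHR letters nor a CCAAT box in their promoter windows, and were called higher in all 4 infusion comparisons.

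Marker lists not given above are counted here for the 4 infusion comparisons, in which 12.2% to 16.3% of all genes were called higher and 12% to 16.6% lower. Of 7 T cell genes 0 or 1 was called higher and 0 or 1 lower in a comparison, of 5 B cell genes 0 higher and up to 4 lower, with a median log2 change between -1.33 and -0.30, and of 8 adipocyte genes 0 higher and up to 2 lower. Of 6 mesothelial genes none was called in either direction by limma, and of 4 myeloid progenitor genes 1 or 2 were called higher and 0 or 1 lower. Among the latter list Elane, Kit and Cd34 were well above background on all 24 arrays. Mpo was so on 10, Ctsg on 3 and Prtn3 on 2, all of them arrays of infused mice. The summed level of the myeloid list was 55.5 to 79 on infused KO arrays against 66.2 to 76.5 on vehicle KO arrays. In WT it was 43.2 to 66.9 against 58 to 70.7. Its part in the rise of the mitotic genes was not tested. The medians of the mesothelial genes ran between -1.72 and 0.62.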
